A study of Mus musculus with 6 samples.

Results

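The integrated stress response is described here through 35 genes of the 23481 in a read-count table of 4T1 cells, a mouse mammary carcinoma line named 4T1_T in the title of the table. The 35 were listed by symbol and known role, with earlier results of these data known, and form 3 groups: 13 sensors and regulators of the initiation factor eIF2, 7 transcription factors around ATF4, and 15 genes known to be induced by ATF4. Asns and the ATF4-induced genes among amino acid carriers, tRNA synthetases and mTORC1 inhibitors stand outside the list. The cells were infected with 1 of 3 short hairpin RNAs, kept in DMEM with non-essential amino acids, and profiled from total RNA extracted with Trizol. Asns, the gene of asparagine synthetase, is targeted by shAsns-1 and by shAsns-2, and shRenilla, which targets a luciferase, served as the control. Every library came from hairpin-infected cells, and the medium was the same for all. Non-essential amino acid supplements usually contain asparagine, the product of the targeted enzyme, but the composition used here is not given in the labels.

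When eIF2 is phosphorylated by one of its kinases, the exchange factor eIF2B is held back and most translation slows, while the messenger RNA of ATF4 is translated more. GCN2 is the kinase that answers to uncharged transfer RNA, as when an amino acid runs short, PERK answers to unfolded protein in the endoplasmic reticulum, and HRI to lack of heme. ATF4 then pairs with other bZIP proteins and switches on genes of amino acid supply, redox balance and, through CHOP and TRIB3, cell death. The first steps act on protein and phosphate, which RNA counts do not see.

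Of the libraries A and B of each hairpin, shAsns-1 B held 0 reads at every gene and was left out, so 5 libraries remained with 10244753 to 15955168 gene reads each. Asns was at 109 CPM (reads per 1000000 gene reads, after scaling between libraries) in the library labelled shAsns-1, whereas shAsns-2 had 46.5 (A) and 44.7 (B) and shRenilla 58.7 (A) and 56.2 (B). Asns was thus highest in a library labelled as a knockdown (log2 fold change against shRenilla 0.92, SE 0.101, adjusted p = 6.27e-05), and that library is called by its label throughout. In shAsns-2 the mean was 45.6 ± 1.31 (SD, n = 2) and in shRenilla 57.5 ± 1.75 (SD, n = 2), a log2 fold change of -0.34 (SE 0.0882) that did not pass adjustment (adjusted p = 0.216). By chi-square over its degrees of freedom, shRenilla A lay nearer to shAsns-2 A and B (6.88 and 5.29) than to shRenilla B (9.21). The library labelled shAsns-1 also stood apart. It had reads at 17672 genes against 15052 to 15392 in the others, and its summed level over 1122 olfactory receptor genes was 40.9 CPM against 8.07 to 12.1. All 8 epithelial markers had reads in every library, summing to 1014 to 1113 CPM in shAsns-2 and shRenilla but to 862 in the remaining library, with Krt14 at 2.79 CPM against 12.0 to 13.0. Leukocyte markers summed to 4.82 to 6.92 CPM, mostly Cd68, with Lyz2 at 0 in all 5 libraries, endothelial markers to 0.364 to 1.65 CPM, and fibroblast markers to 28.8 to 38.9 CPM, nearly all of it Pdgfra, with Lum at 0. In such bulk samples fewer cells of a type and less RNA per cell cannot be told apart. What part these differences play in the results below was not tested.

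The element through which ATF4 acts, the C/EBP-ATF response element, was looked for by its letters, TGATGNAA on either strand, in RefSeq promoter windows (GRCm38.p6) from 250 bases before to 50 bases after each start site. A window was found for 30 of the 35 genes, Gcn1l1 under its current symbol Gcn1. The letters occurred in 8 of 13 target genes with a window (61.5%), in 2 of 7 factors (28.6%) and in 0 of 10 sensors and regulators. Among all 27025 genes with a window, 4.511% held them. Targets were listed as genes known to be induced by ATF4, so a higher share among them may follow from that choice. The sites are shown because the letters were found among targets and factors and not among sensors. They are written 5′ to 3′ on the strand of the gene, with the matched letters in capitals, and the site of Asns, the gene aimed at by the hairpins, is given for comparison.
Chac1, chr2:119351038-119351067, plus strand: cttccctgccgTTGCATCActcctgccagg
Trib3, chr2:152344028-152344057, minus strand: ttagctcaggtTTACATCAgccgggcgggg
Atf3, chr1:191183425-191183454, minus strand: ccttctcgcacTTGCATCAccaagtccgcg
Jdp2, chr12:85599372-85599401, plus strand: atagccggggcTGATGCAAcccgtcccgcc
Nupr1, chr7:126625562-126625591, minus strand: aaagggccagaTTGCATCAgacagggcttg
Herpud1, chr8:94386306-94386335, plus strand: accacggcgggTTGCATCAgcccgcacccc
Pycr1, chr11:120643833-120643862, minus strand: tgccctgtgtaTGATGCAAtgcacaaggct
Pck2, chr14:55540152-55540181, plus strand: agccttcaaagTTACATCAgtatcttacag
Vldlr, chr19:27216809-27216838, plus strand: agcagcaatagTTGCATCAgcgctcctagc
Avil, chr10:127000681-127000710, plus strand: gaatgtggttaTGATGCAAacacaagcaaa
Asns, chr6:7693214-7693243, minus strand: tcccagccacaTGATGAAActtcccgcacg
The cAMP response element TGACGTCA occurred in the window of Ppp1r15a alone among the members, against 2.031% of all genes with a window. The ER stress response element, CCAAT and CCACG with 9 bases between them, occurred in none of the members' windows. It occurred in those of 0.1369% of all genes with a window. Ppp1r15a lacked the C/EBP-ATF letters, so no member held overlapping motifs. A match of letters is a description of the window and not a measured binding site.

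Within the control cells the members covered a wide range of levels. Compared per kilobase of exon (RPKM, with the same scaling), Eif2s1, the phosphorylated subunit of eIF2, reached 93.1 ± 0.682 (SD, n = 2) in shRenilla, and Atf4 reached 92.7 ± 2.37 (SD, n = 2). Both lay near the top of the 12457 genes tested, at the 97.0 and 96.9 percentiles. Ppp1r15b, which encodes the constitutive eIF2 phosphatase subunit CReP, followed at 39.9 RPKM. The stress-induced phosphatase subunit GADD34, encoded by Ppp1r15a, stood at 1.58 RPKM, and CHOP, encoded by Ddit3, at 2.25 RPKM, the 28.9 percentile. Among targets Aldh18a1 was highest, at 12.2 RPKM, and Chac1 stood at 9.69 RPKM, the 62.0 percentile. Trib3, at 1.29 RPKM, lay at the 20.4 percentile. At the low end, 4 targets had too few reads to be tested, so 31 of the 35 genes entered the comparisons. Gdf15, a secreted stress cytokine, had 1 read in shRenilla A and 0 in the other 4 libraries. Cbs had 1 to 4 reads in each library, Soat2 0 to 3 and Avil 3 to 6. Those counts lie around the floor of 3 reads, 0.188 to 0.291 CPM, and no difference was detectable at this depth. Shared sequence limits a few levels: Eif2s1 has a copy, Gm12734, identical over 96.84% of 949 bases, and Gcn1l1 a copy, Gm13123, identical over 99.39% of 492 bases.

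**Figure D1:**
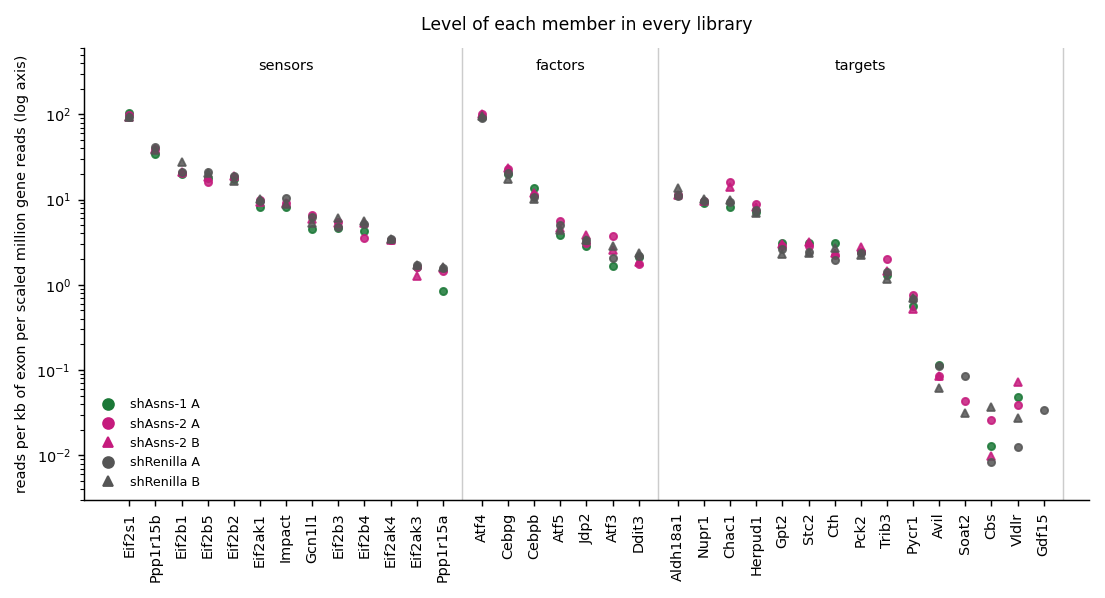
Level of each of the 35 genes in reads per kilobase of exon per 1000000 scaled gene reads (log axis) in every library, ordered by level within the sensors, factors and targets; values of 0 are not drawn. Eif2s1 and Atf4 stood highest, and Avil, Soat2, Cbs, Vldlr and Gdf15 lowest.

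Knockdown with shAsns-2 was compared with shRenilla to ask whether the response was raised when Asns was targeted. Chac1 and Cebpg were the members with the lowest p, both higher in shAsns-2, yet edgeR's quasi-likelihood test gave none of the 31 tested members an adjusted p under 0.05, beside 0.0642% of all genes tested (8 of 12457, all higher). DESeq2 and limma-voom called 0 members too. At an unadjusted p under 0.05 there were 3 members higher (Chac1, Cebpg and Stc2), beside 5.59% of all genes, and 1 lower (Eif2b5), beside 4.05%. Both shAsns-2 libraries lay above both shRenilla libraries for 11 members (35.5%, with 20.6% of all genes) and below both for 5 (16.1%, with 20.7%). The median log2 fold change over the tested members was 0.05, over all genes -0.00. By role it was -0.04 for the 13 sensors and regulators, of which 10 were lower. For the 7 factors it was 0.13, with 6 higher, and for the 11 tested targets 0.24, with 7 higher. Of all genes tested, 50.3% were lower and 49.7% higher. With genes of low count kept, the targets' median was -0.02, over 15 targets of which 7 were higher and 8 lower, so its sign rests on the filter. With the GC trend removed the factors' median was 0.05. The medians are descriptions without a test. The labels do not say that A and B are separate cultures, so each p measures the spread between these libraries only.

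Chac1 encodes an enzyme that cleaves glutathione and was the member with the lowest p for shAsns-2. Its level was 26.5 CPM in shAsns-2 A and 23.1 in shAsns-2 B, against 15.3 in shRenilla A and 16.4 in shRenilla B, and 13.6 in the library labelled shAsns-1. Both shAsns-2 libraries lay above the other 3, with no overlap. The means were 24.8 ± 2.44 (SD, n = 2) in shAsns-2 and 15.9 ± 0.736 (SD, n = 2) in shRenilla, a log2 fold change of 0.64 (SE 0.119, 95% interval 0.39 to 0.89). Its unadjusted p of 5.57e-05 ranked 10 among all genes tested, and its adjusted p of 0.0642 missed the threshold. It passed when genes of low count were kept in the fit (adjusted p = 0.000245), and stood at 0.277 with DESeq2, 0.998 without shAsns-2 A, 0.102 without shRenilla A, 0.228 without shRenilla B and 0.0724 without the library labelled shAsns-1. Over all alternatives its log2 fold change stayed between 0.54 and 0.74. Chac1 lies on chromosome 2 at 119351229 to 119354381 (GRCm38), and the stretch before its RefSeq start site holds the element in capitals.
Chac1, chr2:119350992-119351241, plus strand: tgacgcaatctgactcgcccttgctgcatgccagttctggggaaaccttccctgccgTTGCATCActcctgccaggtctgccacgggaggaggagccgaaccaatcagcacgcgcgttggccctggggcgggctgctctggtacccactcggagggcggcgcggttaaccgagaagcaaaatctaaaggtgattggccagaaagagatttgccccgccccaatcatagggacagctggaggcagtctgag

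**Figure D2:**
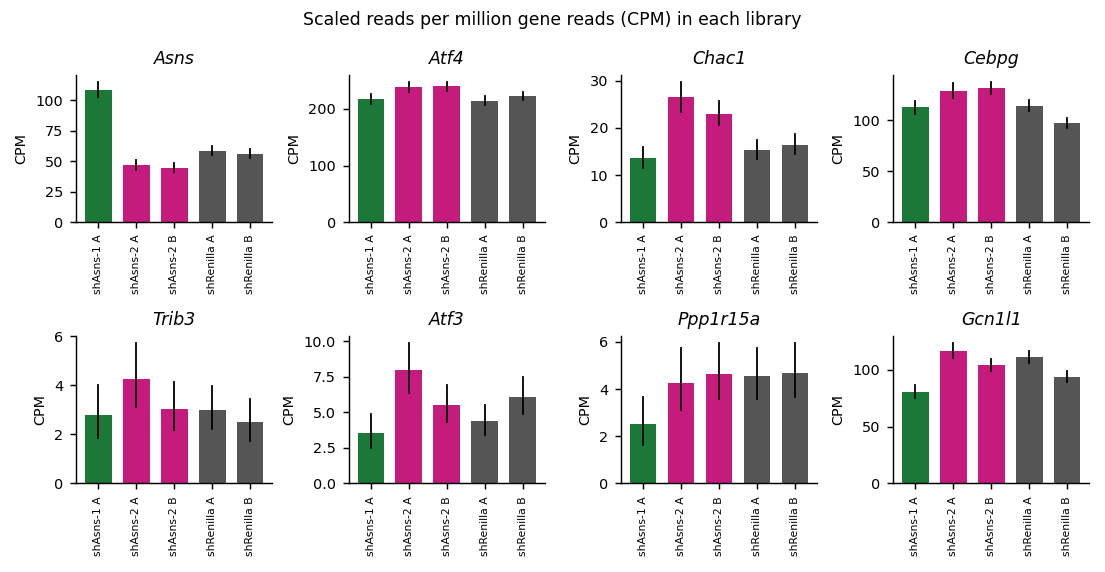
Scaled reads per 1000000 gene reads (CPM, axes from 0) of Asns and 7 members in each of the 5 libraries; vertical lines are 95% Poisson intervals, which cover counting error only. Chac1 was at 26.5 and 23.1 in shAsns-2 and at 13.6 to 16.4 in the other 3 libraries, while Asns was highest, at 109, in the library labelled shAsns-1.

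Among the factors, Atf4 itself differed little. Its level was 218 CPM in the library labelled shAsns-1, with 239 (A) and 240 (B) for shAsns-2 and 215 (A) and 223 (B) for shRenilla. The difference between shAsns-2 and shRenilla was 0.13 on the log2 scale, with an interval from -0.03 to 0.29 (adjusted p = 0.608). Cebpg encodes a C/EBP protein that pairs with ATF4. Its levels were 129 and 132 CPM in shAsns-2, 114 and 97.0 in shRenilla, and 112 in the library labelled shAsns-1, so both shAsns-2 libraries again lay highest. With 130 ± 1.92 against 106 ± 12.2 (SD, n = 2 each), its log2 fold change was 0.30 (SE 0.0896, unadjusted p = 0.00374, adjusted p = 0.284), and 0.19 without shRenilla B. The control libraries differed more at this gene than the shAsns-2 libraries did. Ddit3, the gene of the death-promoting factor CHOP, went the other way, at 3.01 and 3.20 CPM in shAsns-2 against 3.70 and 4.01 in shRenilla, and 3.66 in the library labelled shAsns-1. Its log2 fold change of -0.30 had an interval from -0.80 to 0.19 (adjusted p = 0.700), and 68 bases of its exons overlap Mars on the other strand. Atf3, a stress-induced bZIP factor, was at 7.96 and 5.53 CPM in shAsns-2 and 4.39 and 6.09 in shRenilla, and those groups overlapped. Its log2 fold change of 0.35 (adjusted p = 0.633) ranged from 0.09 without shAsns-2 A to 0.61 without shAsns-2 B. Atf5 and Jdp2 also overlapped between the groups, and Cebpb was higher in both shAsns-2 libraries by 0.17 (adjusted p = 0.662), or by 0.05 with the GC trend removed.

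Trib3, a pseudokinase gene and a classical ATF4 target, was at 4.27 and 3.05 CPM in shAsns-2, 3.01 and 2.49 in shRenilla and 2.79 in the library labelled shAsns-1. Both shAsns-2 libraries lay above both controls, shAsns-2 B by a small margin, with a log2 fold change of 0.38 and an interval from -0.17 to 0.94 (adjusted p = 0.651). The value was 0.15 without shAsns-2 A and 0.63 without shAsns-2 B. Stc2, which encodes a secreted glycoprotein, was at 14.7 and 16.4 CPM in shAsns-2, 12.5 and 12.4 in shRenilla and 16.1 in the library labelled shAsns-1. It was thus above both controls in each of those 3 libraries, with log2 fold changes of 0.33 for shAsns-2 (adjusted p = 0.431) and 0.37 for the library labelled shAsns-1 (adjusted p = 0.211). Gpt2, a mitochondrial alanine aminotransferase, stood likewise at 13.0 to 14.7 CPM in the controls and 15.9 to 17.2 in the other 3 libraries, with log2 fold changes of 0.24 and 0.31 (adjusted p = 0.565 and 0.288). Herpud1, of endoplasmic reticulum protein degradation, was at 20.6 and 19.3 CPM in shAsns-2 and 16.0 to 17.5 in the rest, a log2 fold change of 0.24 against shRenilla (adjusted p = 0.531). Pck2, the mitochondrial phosphoenolpyruvate carboxykinase, was at 18.7 and 21.8 CPM in shAsns-2 and 18.5 and 17.6 in shRenilla (0.17, adjusted p = 0.657). Vldlr, a lipoprotein receptor, had the highest fitted fold change, 1.51, from 4 and 10 reads against 2 and 4, with an interval from -0.07 to 3.09. The proline enzymes Aldh18a1 and Pycr1 had log2 fold changes of -0.12 and -0.14, the stress protein Nupr1 -0.02 and the cysteine enzyme Cth -0.01, each with shAsns-2 and shRenilla overlapping.

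Of the 13 sensors and regulators 10 were lower in shAsns-2, beside 50.3% of all genes. Log2 fold changes over the group ran from -0.26 to 0.10. Eif2ak4, the gene of GCN2, was at 25.2 and 25.1 CPM in shAsns-2, 25.7 and 26.0 in shRenilla and 24.9 in the library labelled shAsns-1. Its log2 fold change of -0.04 had an interval from -0.26 to 0.18 (adjusted p = 0.929). Eif2ak3, the gene of PERK, was at 9.71 and 7.71 CPM against 10.2 and 10.4, a log2 fold change of -0.26 (adjusted p = 0.624). Eif2b5, the catalytic subunit of eIF2B, was the lowest by p: 41.8 and 48.2 CPM in shAsns-2, 54.2 and 53.5 in shRenilla, and 46.7 in the library labelled shAsns-1. Its log2 fold change was -0.25 (unadjusted p = 0.0156, adjusted p = 0.412), and both shAsns-2 libraries lay below both controls. Without shAsns-2 A the value was -0.16. Eif2b4, another subunit of eIF2B, was at 9.32 and 13.7 CPM in shAsns-2 and 13.6 and 14.4 in shRenilla, which overlapped (-0.25, adjusted p = 0.627). Eif2b1, a regulatory subunit of eIF2B, was at 53.2 and 54.3 CPM in shAsns-2 and at 54.4 in shRenilla A, while shRenilla B stood alone at 71.9. Differences between shRenilla A and B exceeded that between the shAsns-2 and shRenilla means for 12 of 31 members (38.7%), and for 57% of all genes tested.

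**Figure D3:**
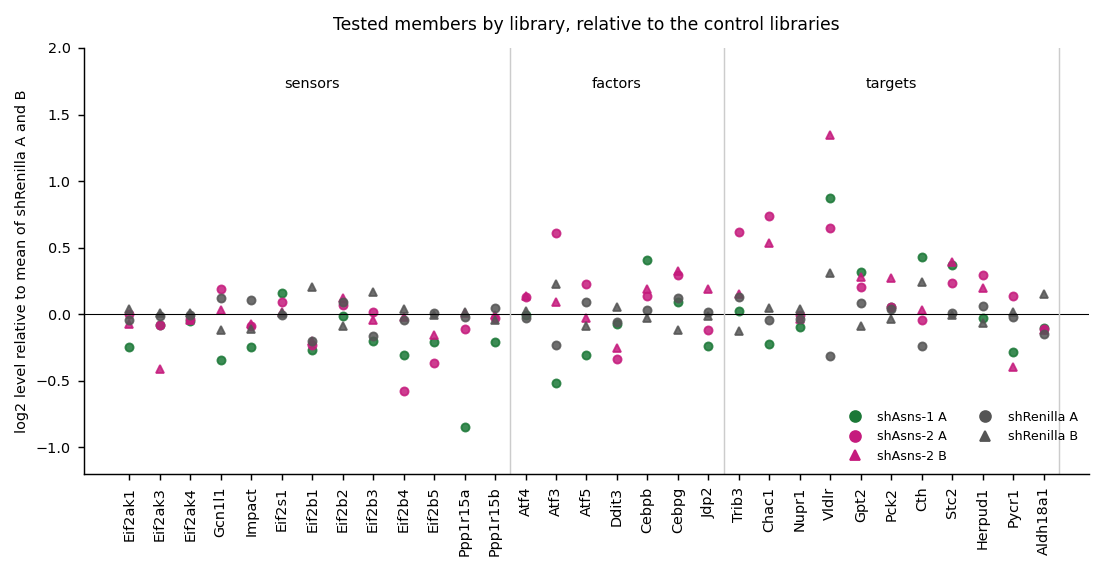
Log2 level of the 31 tested members in each of the 5 libraries, relative to the mean of shRenilla A and B (0 on the vertical axis), in order of role. Chac1 lay above 0.5 in both shAsns-2 libraries, and Ppp1r15a lay lowest of all, in the library labelled shAsns-1.

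The library labelled shAsns-1 was compared with shRenilla as the second hairpin, though its Asns level goes against the label. Most sensors and regulators were lower in it, Gcn1l1 and Ppp1r15a among them, while Cebpb and Stc2 were higher, but none of the 31 members passed adjustment, beside 4.37% of all genes tested (544, of which 288 were higher and 256 lower). DESeq2 and limma-voom called 0 members as well. An unadjusted p under 0.05 was reached by 2 members in the higher direction, Cebpb and Stc2, beside 10% of all genes, and by 4 in the lower, Eif2ak1, Gcn1l1, Ppp1r15a and Ppp1r15b, beside 9.54%. The single library lay above both controls for 7 members (22.6%, with 37.4% of all genes) and below both for 18 (58.1%, with 38.5%). Median log2 fold changes were -0.09 over the members and -0.01 over all genes. By role they were -0.21 for sensors and regulators, -0.07 for factors and 0.02 for targets. Of the 13 sensors and regulators 12 were lower, beside 51.3% of all genes. GC content moved with this contrast: over all genes the median was 0.08 where exons held up to 46.43% GC, -0.04 from there to 52.73%, and -0.08 above that. After that trend was removed the median of the sensors and regulators was -0.21 and that of the targets 0.09. The targets' median was -0.05 with genes of low count kept and -0.01 without shAsns-2 B, so its sign depends on these settings. With a lone library on one side, its spread was taken to be like that of the other groups.

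Gcn1l1 encodes the coactivator on which the activation of GCN2 depends. Its levels were 117 and 104 CPM in shAsns-2, 112 and 94.1 in shRenilla, and 80.6 in the library labelled shAsns-1. The last lay below the other 4, with a log2 fold change of -0.35 against shRenilla (adjusted p = 0.110). Gcn1l1 passed where low counts were kept (adjusted p = 0.0344) and where shRenilla B was left out (-0.47, adjusted p = 0.0232), and was at -0.22 without shRenilla A (adjusted p = 0.285). Impact, which restrains GCN2 by competing for that coactivator, was at 41.8 CPM in the library labelled shAsns-1 and 45.9 to 53.4 in the other 4 (log2 fold change -0.25, adjusted p = 0.274). Ppp1r15a was at 4.27 and 4.66 CPM in shAsns-2, 4.57 and 4.70 in shRenilla, and 2.50 in the library labelled shAsns-1, below all the others. Its log2 fold change of -0.89, the largest in size among sensors and regulators, rested on few reads (interval -1.54 to -0.24, adjusted p = 0.112). Ppp1r15b, which shares its role without being stress-induced, was at 192 CPM against 218 and 222 in shAsns-2 and 230 and 216 in shRenilla (-0.21, adjusted p = 0.240). In Ppp1r15b, 640 bases of the exons (11.4%) overlap Gm26616 on the other strand.

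Eif2ak1, the gene of HRI, was at 55.4 and 52.5 CPM in shAsns-2, 53.8 and 56.9 in shRenilla, and 46.7 in the library labelled shAsns-1. Its log2 fold change was -0.25 (adjusted p = 0.238), and 487 bases of its exons (8.59%) overlap Aimp2 on the other strand. Where the counting ignored strand, reads in that stretch cannot be assigned to either gene by position. The eIF2B subunits Eif2b1 to Eif2b5 had log2 fold changes between -0.31 and -0.02, none with an adjusted p under 0.05. With shRenilla A left out, Eif2b1 was the 1 member that passed, against the level of shRenilla B alone. Eif2s1 was the only member of this group above both controls, at 516 CPM against 459 and 464 (0.16, adjusted p = 0.366). Cebpb, a C/EBP factor that also drives inflammatory genes, was highest in the library labelled shAsns-1, at 20.7 CPM, with 17.2 and 17.8 in shAsns-2 and 15.9 and 15.3 in shRenilla. The groups did not overlap, and its log2 fold change against shRenilla was 0.41 (unadjusted p = 0.0129, adjusted p = 0.127), with 312 bases of its exons (20.7%) overlapping Tmem189. Atf4 was close to its control level in this library (-0.01, interval -0.21 to 0.19), as was Trib3 (0.02, interval -0.74 to 0.77).

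**Figure D4:**
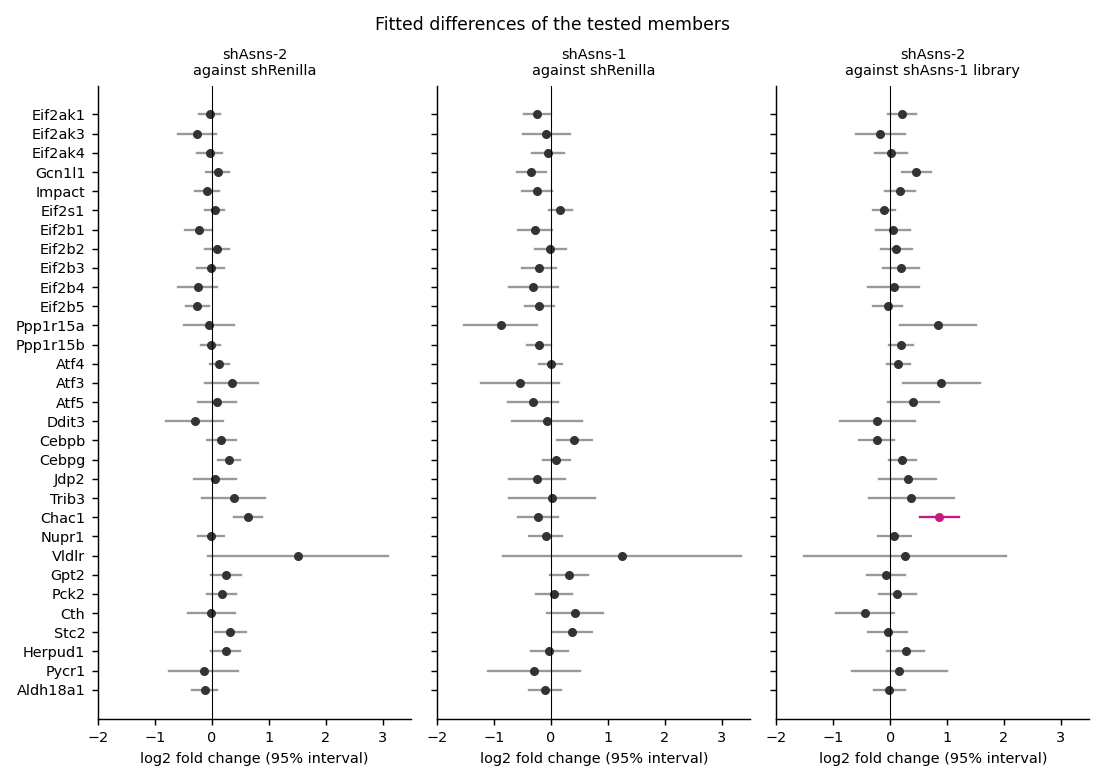
Fitted log2 fold change of each tested member with its 95% interval, for shAsns-2 against shRenilla, the library labelled shAsns-1 against shRenilla, and shAsns-2 against that library; the member past an adjusted p of 0.05 is coloured. Only Chac1 passed, in the last of these comparisons, at 0.86.

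shAsns-2 was also compared directly with the single library labelled shAsns-1, in which hairpin and library cannot be told apart. Chac1 was higher in shAsns-2, by 0.86 on the log2 scale (SE 0.162, interval 0.52 to 1.20, adjusted p = 0.00922). It was the 1 member of 31 that passed, beside 2.14% of all genes tested (267). It no longer passed without shAsns-2 A (0.76, adjusted p = 0.0903), and it passed in the other 12 of 13 alternatives. At an unadjusted p under 0.05, 4 members were higher in shAsns-2 (12.9%, beside 8.87% of all genes) and 0 lower (beside 7.89%). These were Chac1, Gcn1l1 (0.46, adjusted p = 0.0614), Ppp1r15a (0.84, adjusted p = 0.188) and Atf3 (0.90, adjusted p = 0.162). Atf3 was lowest in the library labelled shAsns-1, at 3.56 CPM. Both shAsns-2 libraries lay above that library for 18 members (58.1%, with 39.8% of all genes) and below it for 7 (22.6%, with 39.2%). Medians were 0.14 over members, 0.11 over sensors and regulators, 0.21 over factors, 0.12 over targets and 0.00 over all genes. Here too GC content moved with the contrast, the median of all genes being -0.10 in the lowest of those GC ranges and 0.10 in the highest. With that trend removed Chac1 stood at 0.76 (adjusted p = 0.0254), and the median of the sensors and regulators at 0.04. The targets' median was 0.06 without shAsns-2 A and 0.04 without shAsns-2 B, and the factors' was 0.13 without shAsns-2 B.

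The 9 tested members whose windows hold the C/EBP-ATF letters, among them Chac1, Trib3, Atf3, Herpud1 and Pck2, had a median log2 fold change of 0.24 in shAsns-2 against shRenilla, with 7 higher and 2 lower. The 18 tested members with a window and no such letters had a median of 0.01, with 9 higher and 9 lower. In the library labelled shAsns-1 the medians were -0.09 and -0.08. Between shAsns-2 and that library, all 9 members with the letters were higher in shAsns-2, with a median of 0.27, beside 10 of 18 and 0.03 for those without. Across all 251 tested genes whose windows hold the letters, the medians were -0.00, -0.02 and 0.03 in the same order of comparisons. Of these 251 genes, 122, 120 and 133 were higher in that order. Among all genes tested, 49.7%, 48.7% and 50.5% were higher. The split largely follows role, as the letters occurred in 8 of 13 targets, 2 of 7 factors and 0 of 10 sensors with a window. Letters and role therefore overlap in part, and what part each plays was not tested. The split was not read within a role or with the GC trend removed. The members' medians are descriptions without a test.

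**Figure D5:**
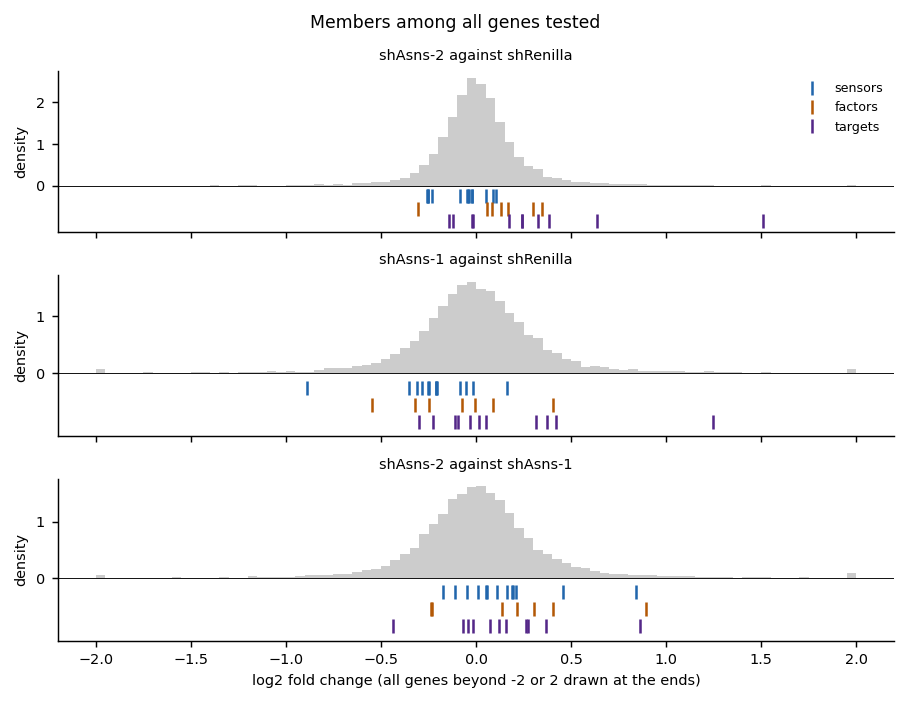
Distribution of log2 fold changes of all 12457 genes tested (grey, density) in each comparison, with the tested sensors, factors and targets as ticks below it; values beyond -2 or 2 are drawn at the ends. In shAsns-2 against shRenilla the targets Chac1, at 0.64, and Vldlr, at 1.51, stood farthest to the right.

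Summed over each role, the levels differed by little between libraries. Sensors and regulators summed to 1141 and 1115 CPM in shAsns-2, 1137 and 1128 in shRenilla, and 1088 in the library labelled shAsns-1. Factors, of which Atf4 and Cebpg make up most, summed to 413 and 416, 370 and 361, and 371 CPM in the same order. Targets summed to 181 and 180, 159 and 169, and 166 CPM. Within that sum Chac1 alone was at 26.5 and 23.1, 15.3 and 16.4, and 13.6 CPM. The shAsns-2 libraries were thus highest for factors and for targets, and the library labelled shAsns-1 lowest for sensors and regulators.

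Of the other pathway genes none passed adjustment in shAsns-2. Among 13 further genes of eIF2 and its phosphatase, 28 tested bZIP factors and 21 genes of the unfolded protein response that act through XBP1 and ATF6, 0 passed adjustment against shRenilla in edgeR's test. At an unadjusted p under 0.05, 2, 3 and 0 of them were higher, beside 5.59% of all genes, and 0, 0 and 1 lower, beside 4.05%. The bZIP gene Atf1 had the lowest p of them, at 226 and 206 CPM in shAsns-2 and 176 and 123 in shRenilla (0.53, adjusted p = 0.148). In the library labelled shAsns-1, Nck1, whose adaptor protein takes part in eIF2 dephosphorylation, rose by 0.44 (adjusted p = 0.0319), to 68.2 CPM from 50.4 ± 0.900 (SD, n = 2) in shRenilla, and Sec61b, a subunit of the protein channel of the endoplasmic reticulum, rose by 0.42 (adjusted p = 0.0394). Neither passed with DESeq2 (adjusted p = 0.109 and 0.144) or without shRenilla A (0.0708 and 0.0625), nor Nck1 with the GC trend removed (0.28, adjusted p = 0.167). Over all 13 alternatives, Nck1 passed in 6 and Sec61b in 7. No bZIP factor passed in the library labelled shAsns-1, beside 4.37% of all genes. At an unadjusted p under 0.05, 2 of the 28 were higher, beside 10% of all genes, and 9 lower, beside 9.54%. Wfs1, a gene of the endoplasmic reticulum membrane, was higher in shAsns-2 than in the library labelled shAsns-1, by 0.69 (adjusted p = 0.0253), at 38.7 and 37.0 CPM against 23.4. It did not pass without shAsns-2 A (adjusted p = 0.153), without shAsns-2 B (0.0698) or with the GC trend removed (0.0727).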

How the data were processed

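The authors deposited raw read counts per gene for 6 libraries, each titled by hairpin and letter; per the submitters' processing notes Bowtie2, HTSeq and the build mm10 were used. Their versions, the annotation and any use of strand were not given in the sources used here. HTSeq's tallies were left out of library sizes and tests (of all reads, 36.1 to 38.3% without a feature, 17.9 to 23.2% unaligned, 0.584 to 0.626% ambiguous). The column of shAsns-1 B, 0 throughout, was dropped from a design that assumed it held reads, leaving 2 residual degrees of freedom. Counts were fitted in edgeR 4.0.16 (R 4.3.3) with filterByExpr by group, TMM scaling and 1 quasi-likelihood model of all 3 groups (biological coefficient of variation 6.23%), adjusted by Benjamini-Hochberg over the 12457 genes kept. Intervals are 95%. Libraries of a group differed by more than counting noise (chi-square over its degrees of freedom, 3.17 in shAsns-2, 9.21 in shRenilla). RPKM used the union of GENCODE M21 exons.

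Members and lists were chosen with earlier results of these data known. Members with an unadjusted p under 0.05 in any comparison, and Atf4, Ddit3, Trib3 and Chac1, are given in every library; further pathway lists by called genes and the lowest p. Alternatives were DESeq2 1.42.0 and its size factors, limma-voom (limma 3.58.1), other filters, libraries left out, a replicate block, GC removal, and fits of the compared groups alone. Tested on simulated data, the fit recovered 62.2% of 1.5-fold and 85.7% of 2-fold changes for shAsns-2 against shRenilla (12263 genes), and 48.5% and 77.8% for shAsns-1 (12246 genes). The simulated libraries shared a mean at every gene not changed, with 98 genes changed at each fold for shAsns-2. The closeness of shRenilla A to the shAsns-2 libraries was not simulated, so recovery in these data may be lower.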

Additional observations from a re-analysis of the deposited data

Results flagged for a closer look

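Chac1 is singled out because its level differed between shAsns-2 and the single library labelled shAsns-1, in which hairpin and library cannot be told apart. Its log2 level in shAsns-2 exceeded that in the library labelled shAsns-1 by 0.86 (SE 0.162, adjusted p = 0.00922 in edgeR's quasi-likelihood test of the difference itself). Relative to shRenilla it was higher in both shAsns-2 libraries and lower in the library labelled shAsns-1, with log2 fold changes of 0.64 and -0.22, neither of which passed adjustment.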

How the results depend on the processing

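No direction of a called result reversed. The members' median log2 fold changes ranged over the alternatives from -0.02 to 0.05, -0.14 to -0.06 and 0.05 to 0.16 for shAsns-2 against shRenilla, shAsns-1 against shRenilla and shAsns-2 against shAsns-1. The first changed sign when genes of low count were kept. The counts of calls moved with the setting, and the cause was not tested. Without the filter on low counts, 1, 1 and 3 members and 114, 919 and 608 genes were called in the same order, against 0, 0 and 1 members and 8, 544 and 267 genes. DESeq2 called 257 and 157 genes in the second and the last of these comparisons. Fits of only the compared groups called 298 genes in the second, and 2 members and 812 genes in the last. Removing the GC trend left 145 genes in the last. Leaving out 1 library gave 0 to 0, 0 to 1 and 0 to 2 members, and 0 to 47, 290 to 825 and 58 to 642 genes. For shAsns-2 against shRenilla, 0 genes were called without shAsns-2 A or without shRenilla B, and 47 without shRenilla A. Members called in this way were Eif2b1 without shRenilla A and Gcn1l1 without shRenilla B in the second comparison, and in the last Gcn1l1 beside Chac1 without either shRenilla library, and none without shAsns-2 A.

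Whether the letters A and B pair the libraries is not stated in the labels. The deviations of shAsns-2 A and shRenilla A from their group means had a correlation of -0.02 across 12457 genes. A single correlation between so few libraries cannot settle the pairing. With a replicate block, 2 members (Cebpg and Chac1), 1 (Gcn1l1) and 2 (Chac1 and Gcn1l1) were called, and 178, 924 and 875 genes. With the GC trend removed and the replicate block, 2, 2 and 3 members and 173, 741 and 608 genes were called. Asns passed in shAsns-2 against shRenilla with the block (-0.33, adjusted p = 0.0388). Depth limits Gdf15, Cbs, Soat2 and Avil, which had 0 to 6 reads, and Vldlr, Trib3, Pycr1, Ddit3 and Ppp1r15a, at under 5 CPM in every library.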

Other observations

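Other pathway lists, which hold some ATF4-induced genes and others not known as such, were read in the same fit. In the library labelled shAsns-1, Slc3a2, the heavy chain of several amino acid exchangers, fell by 0.43 on the log2 scale (adjusted p = 0.0336), to 104 CPM from 131 and 149 in shRenilla, and was at 139 and 130 in shAsns-2. It was the 1 of 11 tested amino acid carriers that passed there, beside 4.37% of all genes. Slc3a2 passed in 7 of 13 alternatives, and not with DESeq2 (adjusted p = 0.0568) or with the GC trend removed (0.0779). The list of aminoacyl-tRNA synthetases held 21 genes, among them Xpot, which encodes a tRNA export receptor. Of the 21, 12 were lower in that library at an unadjusted p under 0.05, beside 9.54% of all genes. Of that list 0 passed adjustment, and its median log2 fold change was -0.24. Deptor, which encodes an mTOR inhibitor, rose by 0.50 there (adjusted p = 0.0114), to 133 CPM from 94.1 ± 1.27 (SD, n = 2), and was at 107 and 94.4 in shAsns-2. Of 8 enzymes of serine and one-carbon metabolism 0 passed. At an unadjusted p under 0.05, 0 of them were higher, beside 10% of all genes, and 2 lower, beside 9.54%.

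In shAsns-2 against shRenilla, 0 genes of these 4 lists passed in edgeR's test, beside 0.0642% of all genes. Higher at an unadjusted p under 0.05 were 1 of 11 carriers, 0 of 21 genes of the synthetase list, 2 of 9 mTORC1 inhibitors and 1 of 8 serine and one-carbon enzymes, beside 5.59% of all genes. Lower was 1 synthetase, beside 4.05%. Both shAsns-2 libraries lay below both shRenilla libraries for 13 of the 21 genes of the synthetase list (61.9%, with 20.7% of all genes). They lay above both for 0 of that list (with 20.6% of all genes). Its median log2 fold change was -0.07, with 18 lower and 3 higher. Ddit4, an mTORC1 inhibitor induced by stress, had the lowest p, at 18.7 and 20.7 CPM in shAsns-2, 13.3 and 11.1 in shRenilla and 16.4 in the library labelled shAsns-1 (log2 fold change 0.69, adjusted p = 0.0674).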
